A study of Mus musculus with 15 samples.

Results

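*Fabp5* and the lipid genes around it were described in 15 mouse T cell leukemia lines. The 10 members, a list of genes drawn up with earlier results of these data known, were the fatty acid binding genes *Fabp5* and *Fabp4*, the fatty acid transporter *Cd36*, the synthesis genes *Srebf1*, *Acaca*, *Fasn*, *Elovl6*, *Scd1* and *Scd2*, and the thioesterase gene *Acot1*. Of these, 9 had a row among the 12545 genes listed by the authors. *Cd36* was not listed and is not analysed here. The lines arose in the thymus of mice backcrossed onto an FVB/NJ background. They were cultured in serum-containing medium without treatment, and gave 1 RNA-sequencing library each. All of them lack *E2a*. The 7 lines called *E2a-/-* carry no further engineered allele in the labels, and the 8 lines called DKO have the genotype E2a-/-LefF/F LckCre+, in which Cre under the *Lck* promoter deletes the floxed part of *Lef1*, which encodes its DNA binding domain, in T lineage cells. Each line is a culture of leukemia cells, and the labels do not say whether all lines came from separate mice. The labels give neither the age of the mice nor a sequencing batch. The question was how the members differed between DKO and *E2a-/-* lines, and whether *Fabp5* rose and fell with the other lipid genes from line to line.

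Fatty acids are built in the cytosol from acetyl-CoA. ACACA makes malonyl-CoA, FASN extends the chain to palmitate, ELOVL6 lengthens it to stearate, and SCD1 and SCD2 place a double bond in it. SREBP1, the product of *Srebf1*, is the transcription factor known for switching these genes on. Fatty acid binding proteins carry fatty acids inside the cell: FABP5 is found in skin, lymphocytes and many tumors, and FABP4 in adipocytes, macrophages and some endothelium. Cytosolic thioesterases such as ACOT1 split acyl-CoA into free fatty acid and CoA.

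Values are in CPM, the reads of a gene scaled to the total of reads assigned to genes in that line. The listed genes took 4847970 to 21377352 reads in the DKO lines and 14477802 to 21681586 in the *E2a-/-* lines, and DKO79.9 was the shallowest. *Lef1* was lower in DKO lines, with 103 to 210 CPM, than in 6 of the 7 *E2a-/-* lines, with 668 to 1558 CPM, but the line labelled SKO132 had 59.0 CPM, below every DKO line. These counts also cover the part of *Lef1* that is not deleted. Of the 11 T cell markers examined, all were listed, and they summed to 3144 to 5427 CPM across DKO lines and 2360 to 5649 CPM across *E2a-/-* lines, although *Cd5* stayed between 0.142 and 21.2 CPM and *Cd2* fell as low as 0.496 CPM. Of 10 macrophage markers, 3 were listed (*Cd68*, *Lyz2* and *Itgam*), with a sum of 10.6 to 18.9 CPM across DKO lines and 8.99 to 16.7 CPM across *E2a-/-* lines. None of 6 adipocyte markers was listed. Of 6 endothelial markers only *Pecam1* was listed, at 44.9 to 157.4 CPM, and of 5 B cell markers only *Ighm*, at 19.5 to 259 CPM. Of 6 fibroblast markers, *Col1a2* and *Pdgfra* were listed, with a sum of 3.89 to 947 CPM across DKO lines and 1.84 to 280 CPM across *E2a-/-* lines. SKO156.6 and SKO186.5 were the most alike pair of lines (Spearman's rho across genes 0.987, against 0.969 for the next pair), and whether they came from the same mouse is not given in the labels. They were kept as separate lines, as labelled, and averaged in an alternative.

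Per kilobase of the longest protein-coding transcript, *Scd2* had the highest level of the members, with a median over the 15 lines of 387 CPM per kb, followed by *Fabp5* at 178, *Fasn* at 107, *Srebf1* at 50.9, *Acaca* at 38.8, *Scd1* at 33.5, *Elovl6* at 12.4, *Fabp4* at 2.28 and *Acot1* at 0.351 CPM per kb. The ranges over lines overlapped between every member and the next one in this order. The members differed in how far they ranged. From the lowest to the highest line, *Fasn* changed 2.95-fold, *Acaca* 3.08-fold, *Srebf1* 3.41-fold and *Scd2* 4.72-fold, whereas *Fabp5* changed 18.8-fold, *Elovl6* 24.6-fold and *Scd1* 401-fold. *Fabp4* and *Acot1* were at 0 in some lines.

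**Figure D1:**
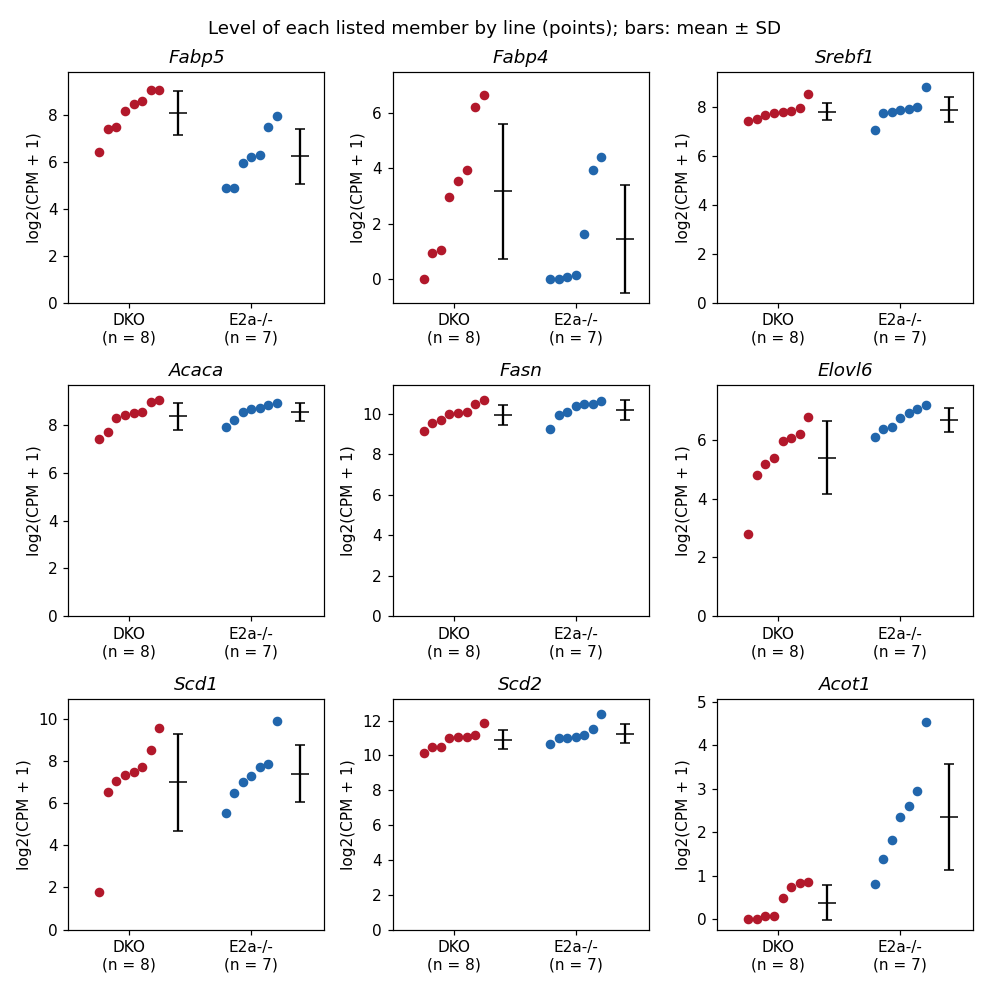
Each panel shows 1 member, with the level of every line as log2(CPM + 1) on the y axis, DKO lines in red (n = 8) and *E2a-/-* lines in blue (n = 7), points spread sideways by rank, and the mean ± SD as a black bar. *Fabp5* was above the median of the *E2a-/-* lines in all 8 DKO lines and *Acot1* was below it in all 8, whereas the points of *Srebf1*, *Acaca*, *Fasn*, *Scd1* and *Scd2* overlapped broadly.

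*Fabp5* was the binding protein gene with the higher level, and it had higher values in most DKO lines. The DKO lines ranged from 83.2 CPM in DKO79.9 to 530 CPM in DKO713, with a median of 317 CPM. The *E2a-/-* lines ranged from 28.2 CPM in SKO115.2 to 244 CPM in SKO156.6, with a median of 72.6 CPM. All 8 DKO lines were above the *E2a-/-* median and 5 were above every *E2a-/-* line. The 2 *E2a-/-* lines that reached into the DKO range were SKO156.6 and, with 176 CPM, SKO186.5, which are the most alike pair. The means were 312 ± 165 CPM (SD, n = 8) and 98.3 ± 81.2 CPM (SD, n = 7), a log2 fold change of 1.84 ± 0.50 (SE) on the log2(CPM + 1) scale. With limma and Benjamini-Hochberg adjustment over 12545 genes, the adjusted p was 0.176, which misses the threshold of 0.01. The two-sided exact permutation test over the 6435 splits of the lines gave p = 0.00622, unadjusted, where the smallest p this design allows is 0.000155. The call depended on the test: the likelihood ratio test of edgeR gave on recovered reads an adjusted p of 0.00888, DESeq2 one of 0.0197 and edgeR's quasi-likelihood test one of 0.203. Without DKO79.9 the log2 fold change was 2.08 with a limma adjusted p of 0.0695.

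A near copy of *Fabp5* is listed as a gene of its own. *Gm6166* on chromosome 9 is annotated by GENCODE as a processed pseudogene, an intronless copy of an mRNA, and over 407 aligned bases its 409-base transcript has 402 bases identical to the *Fabp5* transcript. The last part of the aligned stretch is printed here for both, from GENCODE vM21 transcripts, because it shows how few bases tell reads of the 2 genes apart. Capitals mark every base that differs or is extra, 4 in the *Fabp5* stretch (bases 271 to 499 of its transcript) and 6 in the *Gm6166* stretch (bases 179 to 409).
Fabp5: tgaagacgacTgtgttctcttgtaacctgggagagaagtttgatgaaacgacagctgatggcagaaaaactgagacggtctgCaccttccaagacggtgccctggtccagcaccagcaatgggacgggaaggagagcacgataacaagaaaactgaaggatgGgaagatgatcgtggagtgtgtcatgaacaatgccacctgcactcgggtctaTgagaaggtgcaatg
Gm6166: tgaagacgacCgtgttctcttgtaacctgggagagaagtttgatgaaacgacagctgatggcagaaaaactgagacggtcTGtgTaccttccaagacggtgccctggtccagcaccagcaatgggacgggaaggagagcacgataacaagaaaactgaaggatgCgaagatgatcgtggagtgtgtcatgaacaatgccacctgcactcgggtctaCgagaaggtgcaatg
*Gm6166* had 66.6 ± 35.3 CPM across DKO lines (SD, n = 8) against 25.3 ± 22.5 CPM across *E2a-/-* lines (SD, n = 7), between 0.120 and 0.289 of the *Fabp5* value of the same line. The counts of both genes are therefore uncertain to the extent that reads were split between them. With the values of both summed, the log2 fold change was 1.81 (limma, adjusted p = 0.177), against 1.84 for *Fabp5* alone. *Fabp4* is less alike, with 246 of 338 aligned bases identical to *Fabp5*.

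*Fabp4*, which lies 188 kb from *Fabp5* on chromosome 3, was low or absent in most lines and high in a few. DKO713 had 98.7 CPM and DKOTu3 72.9 CPM, and SKO156.6 with 19.9 CPM and SKO186.5 with 14.3 CPM were the highest *E2a-/-* lines. DKO102.4 had 14.1, DKO548 10.5, DKO170.2 6.83, DKO192.3 1.08 and DKO241 0.903 CPM. DKO79.9, SKO115.2 and SKO163.5 were at 0, which allows up to 0.618, 0.155 and 0.161 CPM (3 reads, counting error only), SKO137.1 and SKO95 were below 0.1 CPM, and SKO132 had 2.04 CPM. The groups overlapped, and both lines over 50 CPM were DKO. The medians were 8.68 CPM in DKO and 0.0922 CPM in *E2a-/-* lines, with a log2 fold change of 1.71 ± 1.06 (SE) and a limma adjusted p of 0.605. This fold depends on how low values are treated and was 2.81 with a pseudocount of 0.1. Of the markers of cells in which *Fabp4* is typically found, none of the 6 adipocyte markers was listed, the listed macrophage markers did not exceed 12.9 CPM in any line, and the endothelial marker *Pecam1* was at 44.9 to 129 CPM in the DKO and 50.7 to 157.4 CPM in the *E2a-/-* group. In these bulk libraries, few cells with much of the RNA and many cells with little of it cannot be told apart.

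Among the genes of synthesis, the regulator and the first 2 enzymes were at like levels in both groups. *Srebf1* ranged from 169 to 366 CPM in DKO (median 214) and from 130 to 443 CPM in *E2a-/-* lines (median 232). Its highest lines were DKO241 and SKO132, and without SKO132 its small log2 fold change of -0.08 ± 0.21 (SE) became 0.07. *Acaca* ranged from 171 to 525.9 CPM in DKO (median 357) and from 240 to 490 CPM in *E2a-/-* lines (median 411), with a log2 fold change of -0.18 ± 0.23 (SE). *Fasn* ranged from 562 to 1657 CPM in DKO (median 1036) and from 612 to 1617 CPM in *E2a-/-* lines (median 1349), with a log2 fold change of -0.22 ± 0.24 (SE). The limma adjusted p was 0.922 for *Srebf1*, 0.825 for *Acaca* and 0.776 for *Fasn*. All 3 genes are on chromosome 11, and in DKO241 the genes of that chromosome were shifted up by a median of 0.47 on the log2 scale relative to all autosomal genes, against at most 0.10 in any other line; the part of this shift in the high *Srebf1* of DKO241 was not tested.

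*Elovl6*, the elongase, had lower values in most DKO lines. These ranged from 5.95 CPM in DKO241 to 110 CPM in DKO548, with a median of 52.0 CPM, and the *E2a-/-* lines from 67.6 CPM in SKO137.1 to 146 CPM in SKO132, with a median of 108 CPM. Of the DKO lines, 6 were below every *E2a-/-* line, while DKO548 was above the *E2a-/-* median. The means were 52.8 ± 32.2 CPM (SD, n = 8) and 106 ± 29.3 CPM (SD, n = 7). The log2 fold change was -1.29 ± 0.45 (SE), with a limma adjusted p of 0.336 and an unadjusted exact permutation p of 0.00777. The table places *Elovl6* on chromosome 3, 1472 kb from *Lef1*. The nearby gene *Pla2g12a*, a secreted phospholipase gene 240 kb away that was picked out after its values were seen, had the other direction, with 49.5 ± 20.6 CPM across DKO lines (SD, n = 8) against 15.3 ± 4.44 CPM across *E2a-/-* lines (SD, n = 7) and a limma adjusted p of 0.0352.

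The 2 desaturase genes lie 87.6 kb apart on chromosome 19. *Scd2* ranged from 1137 to 3728 CPM in DKO (median 2102) and from 1617 to 5370 CPM in *E2a-/-* lines (median 2110), with a log2 fold change of -0.35 ± 0.27 (SE) and a limma adjusted p of 0.683. *Scd1* varied far more, from 2.42 CPM in DKO713 to 747 CPM in DKO548 and from 45.6 CPM in SKO163.5 to 968 CPM in SKO132. The extremes of *Scd1* were thus set by single lines, and its medians were 169 CPM in DKO and 157.0 CPM in *E2a-/-* lines. Between the groups *Scd1* had a log2 fold change of -0.41 ± 0.92 (SE; limma, adjusted p = 0.911), which became 0.34 without DKO713 and 0.01 without SKO132. DKO713, with the lowest *Scd1*, had 2076 CPM of *Scd2*, close to the DKO median. The transcripts of both genes share 1096 of 1236 aligned bases, so single reads can match both.

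*Acot1* had the lowest unadjusted p of the 9 members, at low levels. The DKO lines had 0 CPM in DKO192.3 and DKO548, where a count of 0 allows up to 0.14 and 0.173 CPM (3 reads, counting error only), a median of 0.232 CPM and at most 0.830 CPM in DKO170.2. The *E2a-/-* lines had 0.753 CPM in SKO163.5, a median of 4.07 CPM and 22.3 CPM in SKO132. Of the *E2a-/-* lines, 6 were above every DKO line, and SKO163.5 fell inside the DKO range. The log2 fold change was -1.96 ± 0.43 (SE), with a limma adjusted p of 0.0854 and an unadjusted exact permutation p of 0.000466. Count tests on recovered reads gave a log2 fold change of -4.11 (edgeR's likelihood ratio test, adjusted p = 0.00189) and -4.09 (DESeq2, adjusted p = 0.00115), so *Acot1* was called by both, whereas edgeR's quasi-likelihood test gave -4.05 (adjusted p = 0.125) and did not call it. Most DKO values of *Acot1* rest on few reads, and log2(CPM + 1) understates changes at this level. *Acot2*, the neighbouring mitochondrial thioesterase gene, shares 1254 of 1330 aligned transcript bases with *Acot1*, so reads may be split between them. It had 4.09 ± 1.29 CPM across DKO lines (SD, n = 8) against 7.90 ± 3.31 CPM across *E2a-/-* lines (SD, n = 7), with a limma adjusted p of 0.211.

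None of the 9 members passed an adjusted p of 0.01 in limma, where 0.0478% of the 12545 genes did. At an unadjusted p under 0.05, 3 of 9 passed (*Fabp5*, *Elovl6* and *Acot1*), against 10.2% of all genes. The likelihood ratio test called 2 of 9 (*Fabp5* and *Acot1*), against 1.24% of all genes, and DESeq2 called 1 of 9 (*Acot1*), against 1.41%. The quasi-likelihood test of edgeR called 0 of 9 members and 1 gene in all, with 1359 genes at an unadjusted p under 0.05. In no member did the groups separate without overlap, which 0.175% of all genes did. Of the 9 members, *Fabp5* and *Fabp4* had positive and the other 7 negative fold changes in limma, beside 6735 of all 12545 genes with a negative one. The median log2 fold change was -0.22, beside -0.02 over all genes, and the signs of *Srebf1* and *Scd1* turned when single lines were left out.

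Promoter sequences from RefSeq (GRCm38.p6, the stretch around each transcription start) were given for 6 of the 10 members, as 8 promoters. These were *Acaca*, *Acot1*, *Elovl6*, *Fasn*, *Srebf1* and the unlisted *Cd36*, while *Fabp5*, *Fabp4*, *Scd1* and *Scd2* had none. LEF1 binds DNA at motifs of the type CTTTGA, searched on both strands and shown in capitals. The promoters of *Elovl6* and *Acot1* are printed because they were the only members with a match, 1 each, 241 and 211 bases before the start. Every listed member with a promoter had a negative fold change in DKO lines, so a match could not fall on a member with a positive one. The motif was in 5257 of all 32851 promoters and in 2 of the 8, and a match is no sign of binding. The *Elovl6* promoter is at chr3:129532136-129532435 on the plus strand and that of *Acot1* at chr12:84009252-84009551 on the plus strand.
Elovl6: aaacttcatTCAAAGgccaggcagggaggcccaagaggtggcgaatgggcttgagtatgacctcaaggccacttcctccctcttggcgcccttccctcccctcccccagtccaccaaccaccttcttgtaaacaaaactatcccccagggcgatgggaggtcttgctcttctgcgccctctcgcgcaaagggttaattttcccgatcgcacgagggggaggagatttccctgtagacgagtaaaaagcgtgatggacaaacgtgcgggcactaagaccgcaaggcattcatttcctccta
Acot1: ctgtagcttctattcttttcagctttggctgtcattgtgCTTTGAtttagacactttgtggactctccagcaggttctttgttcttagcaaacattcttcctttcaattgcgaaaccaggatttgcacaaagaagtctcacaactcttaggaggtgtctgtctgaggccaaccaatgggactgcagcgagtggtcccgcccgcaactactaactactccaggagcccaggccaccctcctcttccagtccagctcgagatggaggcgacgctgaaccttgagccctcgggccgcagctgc
The *Fasn* promoter, at chr11:120824498-120824797 on the minus strand, is shown because *Fasn* was among the synthesis genes that varied together across lines. Capitals mark its CCAAT boxes on either strand, 3 matches of which 2 overlap, between 90 and 59 bases before the start. CCAAT was in 37.4% of all promoters and in 5 of the 8, which belong to *Acot1*, *Cd36*, *Fasn* and *Srebf1*. Of the genes that varied with *Fasn*, *Acaca* had no match and *Scd2* no promoter, so no shared element is shown. The sterol regulatory element TCACNCCAC, searched on both strands, was in 1.24% of all promoters and in 0 of the 8, which says only that these letters are not in these windows.
Fasn: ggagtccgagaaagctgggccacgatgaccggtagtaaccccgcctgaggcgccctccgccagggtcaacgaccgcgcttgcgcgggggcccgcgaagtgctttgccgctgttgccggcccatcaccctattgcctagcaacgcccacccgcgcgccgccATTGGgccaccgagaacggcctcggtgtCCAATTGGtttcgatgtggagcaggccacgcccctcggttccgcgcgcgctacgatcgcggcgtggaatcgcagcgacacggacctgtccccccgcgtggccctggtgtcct

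Across the 15 lines, *Fabp5* varied with *Fabp4*. Lines high in *Fabp5* tended to be high in *Fabp4* in both groups. Pearson's r of the log2(CPM + 1) values was 0.79 (permutation p = 0.00058, 100000 permutations) and Spearman's rho 0.78 (permutation p = 0.0009). Within the 8 DKO lines r was 0.71 (exact permutation p = 0.0511) and rho 0.71 (exact permutation p = 0.0576), and within the 7 *E2a-/-* lines r was 0.91 (exact permutation p = 0.000794) and rho 0.95 (exact permutation p = 0.00397). Among the *E2a-/-* lines, only the alike pair SKO156.6 (19.9 CPM) and SKO186.5 (14.3 CPM) had more than 2.04 CPM of *Fabp4*. The p within that group treats this pair as separate lines, and r within it was not computed without the pair. Without SKO115.2 and SKO163.5, the 2 lines farthest from the median of *Fabp5*, r was 0.76 (permutation p = 0.00351), and without the alike pair SKO156.6 and SKO186.5 it was 0.79. DKO241 went against the relation, with 285 CPM of *Fabp5* and 0.903 CPM of *Fabp4*.

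With the other 7 members, r of *Fabp5* ranged from -0.47 to -0.05 and no r had a permutation p under 0.05. For the first enzymes of synthesis r was -0.05 with *Fasn* (rho -0.18, permutation p = 0.864 and 0.522) and -0.21 with *Acaca* (rho -0.28, permutation p = 0.449 and 0.312), and for the regulator *Srebf1* it was -0.14 (rho -0.36, permutation p = 0.616 and 0.184). The desaturase genes had r = -0.10 for *Scd1* (rho 0.14, permutation p = 0.745 and 0.619) and r = -0.24 for *Scd2* (rho -0.24, permutation p = 0.389 and 0.379). For *Scd1* the groups had opposite signs, with rho = 0.86 within the *E2a-/-* lines (exact permutation p = 0.0238; r = 0.54, exact permutation p = 0.2) and rho = -0.48 within the DKO lines (exact permutation p = 0.243; r = -0.40, exact permutation p = 0.315), and the difference was not tested. *Elovl6* had r = -0.43 (permutation p = 0.107) and rho = -0.55 (permutation p = 0.0378), and *Acot1* r = -0.47 (permutation p = 0.0781) and rho = -0.47 (permutation p = 0.0791). For both genes the relation did not hold within the groups. After centring on the genotype means, r was -0.04 for *Elovl6* and 0.13 for *Acot1*. Without SKO115.2 and SKO163.5, r was more negative for *Fasn* (-0.50, permutation p = 0.0822), *Acaca* (-0.51, permutation p = 0.0743), *Scd2* (-0.52, permutation p = 0.069) and *Acot1* (-0.55, permutation p = 0.0477). Without those lines, Spearman's rho was -0.60 for *Fasn* (permutation p = 0.0339), -0.52 for *Acaca* (permutation p = 0.0734), -0.60 for *Scd2* (permutation p = 0.0326) and -0.44 for *Acot1* (permutation p = 0.133). The pooled values thus rest partly on those 2 lines.

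**Figure D2:**
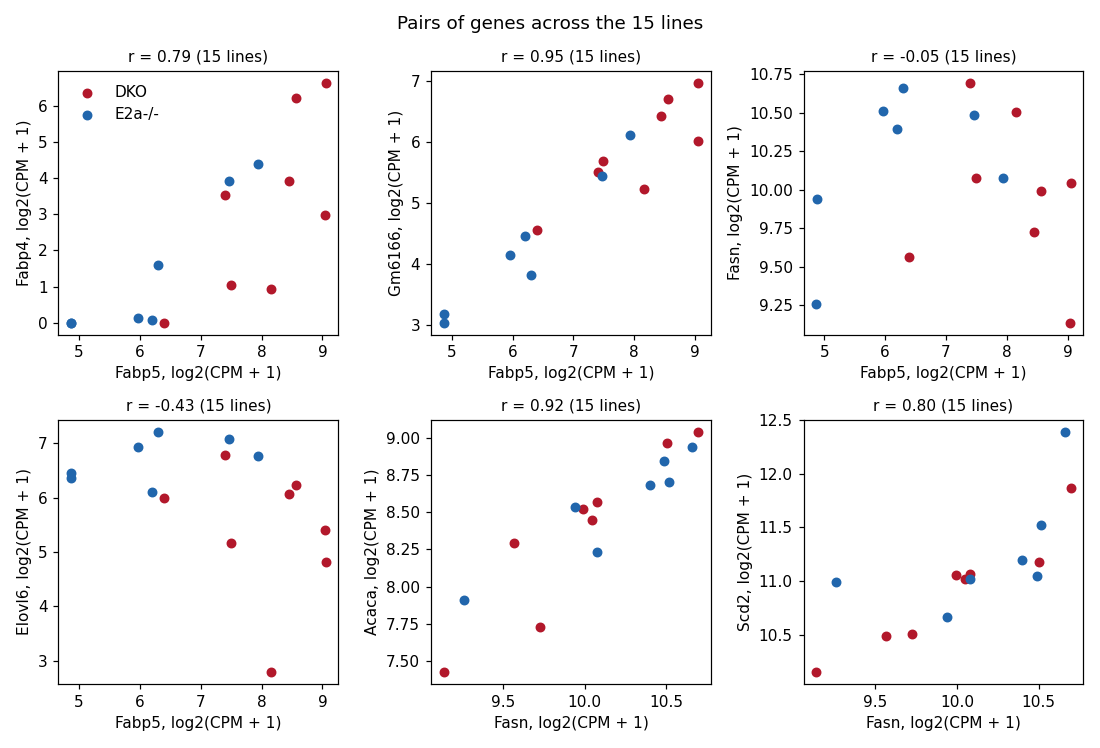
Each panel plots 2 genes against each other as log2(CPM + 1), 1 point per line, DKO in red and *E2a-/-* in blue, with Pearson's r above it. *Fabp4* and *Gm6166* rose with *Fabp5* (r 0.79 and 0.95) and *Acaca* and *Scd2* rose with *Fasn* (r 0.92 and 0.80), whereas *Fasn* and *Elovl6* did not rise with *Fabp5*.

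In a limma fit of every gene on the level of *Fabp5* with genotype as a further term, 1 of 12544 genes met an adjusted p of 0.01, 0.00797% of those tested, and it was the copy *Gm6166* (slope 0.86 ± 0.10 SE, adjusted p = 0.00858). Of the 8 other members none passed. *Fabp4* had the slope farthest from 0, 1.67 ± 0.36 (SE), with an unadjusted p of 0.000321 and an adjusted p of 0.216, and it was the 1 member of 8 with an unadjusted p under 0.05, which 10.3% of all genes had. The other 7 had adjusted p values from 0.918 to 0.992. Without the genotype term 4 genes passed, and *Fabp4* had an adjusted p of 0.0332.

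Of the synthesis genes, *Fasn*, *Acaca* and *Scd2*, varied with each other. *Fasn* and *Acaca*, which catalyse consecutive steps, had r = 0.92 and rho = 0.92 (permutation p = 1e-05 for both, the smallest that 100000 permutations give), with r = 0.93 in DKO (exact permutation p = 0.00179) and r = 0.94 in *E2a-/-* lines (exact permutation p = 0.00377). *Fasn* and *Scd2* had r = 0.80 (permutation p = 0.00034) and rho = 0.92 (permutation p = 1e-05), and r was 0.95 in DKO (exact permutation p = 7.44e-05) and 0.59 in *E2a-/-* lines (exact permutation p = 0.162). *Acaca* and *Scd2* had r = 0.76 (permutation p = 0.00111) and rho = 0.86 (permutation p = 7e-05). Leaving out the 2 lines farthest from the median of the first gene gave r = 0.93 for *Acaca* with *Fasn*, 0.85 for *Fasn* with *Scd2* and 0.62 for *Acaca* with *Scd2*. The low end of all 3 genes was held by DKO170.2, which had the second highest *Fabp5*, and the highest line was DKO548 for *Fasn* and *Acaca* and SKO132 for *Scd2*. Without DKO241, the line with the shifted chromosome 11, r of *Fasn* with *Acaca* was 0.91.

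Of the 36 pairs of listed members, 4 had a permutation p under 0.05 for r, namely *Fabp5* with *Fabp4* and these 3 pairs, and the same 4 had one after centring on the genotype means. For *Srebf1* no r with an enzyme had a permutation p under 0.05: it was 0.33 with *Fasn* (permutation p = 0.237), 0.43 with *Acaca* (permutation p = 0.104), 0.48 with *Scd2* (permutation p = 0.0696) and 0.51 with *Scd1* (permutation p = 0.0664), while rho with *Acaca* was 0.58 (permutation p = 0.0259). Single lines moved these values. The r of *Srebf1* with *Scd2* was 0.11 without SKO132 and 0.73 without SKO95, and without SKO95 it was 0.56 with *Fasn* and 0.61 with *Acaca*. *Scd1* and *Fasn* had r = 0.40 (permutation p = 0.138) and rho = 0.65 (permutation p = 0.0099), and r was 0.65 without DKO713. In a limma fit of every gene on *Fasn* with genotype, added after these correlations were seen, 103 of 12544 genes met the same threshold, or 0.821%. *Acaca* passed (slope 0.89 ± 0.11 SE, adjusted p = 0.00343), as the only member, and *Scd2* did not (slope 0.87 ± 0.19 SE, adjusted p = 0.0167). The other lipid gene that passed was *Acly*, which supplies cytosolic acetyl-CoA (slope 0.78 ± 0.13 SE, adjusted p = 0.00698). Genes outside lipid metabolism were at the top of that fit, among them *Brca1*, a DNA repair gene, with an adjusted p of 0.00303.

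**Figure D3:**
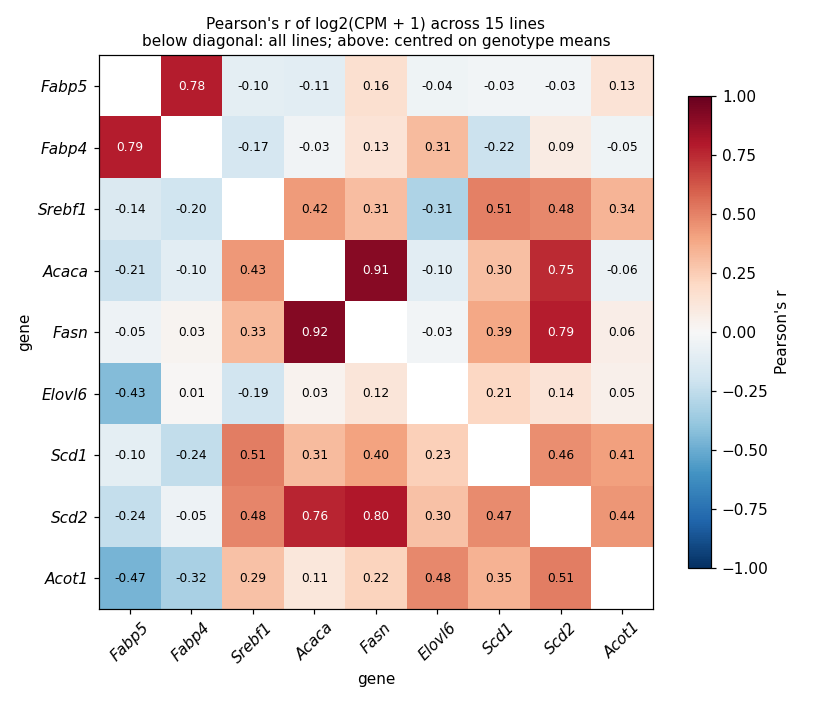
The grid gives Pearson's r of log2(CPM + 1) between the 9 listed members across 15 lines, below the diagonal for the values as they are and above it after subtracting the mean of each genotype, from blue (negative) to red (positive). *Fabp5* and *Fabp4* form 1 block (0.79 and 0.78) and *Acaca*, *Fasn* and *Scd2* another (0.76 to 0.92 below the diagonal and 0.75 to 0.91 above it), with values from -0.24 to 0.16 between the blocks.

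The genes most like *Fabp5* across the lines were outside the lipid lists. By Spearman's rho over 15 lines, among the 9706 other genes averaging at least 5 CPM, the 5 highest were *Gli1*, the transcription factor of Hedgehog signaling (0.91), the copy *Gm6166* (0.91), *Mcub*, a subunit of the mitochondrial calcium channel (0.91), ENSMUSG00000090430 (0.89) and *Trib1*, a pseudokinase (0.89). The 5 lowest were *Pdlim2* (-0.90), *Ccar2* (-0.88), *Fgd3* (-0.88), *Atg12*, an autophagy gene (-0.86), and *Ist1* (-0.86). *Fabp4* came at rank 26 from the top and *Elovl6* at rank 506 from the bottom, while *Fasn*, *Acaca*, *Scd1*, *Scd2* and *Srebf1* were at ranks 3223 to 8178 from the top. These rho values are a description over lines that also differ by genotype: *Gli1* had 60.9 ± 49.6 CPM across DKO lines (SD, n = 8) against 7.44 ± 7.86 CPM across *E2a-/-* lines (SD, n = 7), and *Pdlim2* 1.79 ± 1.13 CPM (SD, n = 8) and 13.7 ± 8.49 CPM (SD, n = 7). *Mcub*, placed on chromosome 3 between *Elovl6* and *Lef1*, had 10.6 ± 14.4 CPM across DKO (SD, n = 8) and 0.0686 ± 0.106 CPM across *E2a-/-* lines (SD, n = 7). With genotype as a term, its slope on *Fabp5* had a limma adjusted p of 0.356.

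The wider lipid pathways were followed in 7 lists with 159 genes in all, of which 120 were listed in the table. None of the 120 passed an adjusted p of 0.01 in limma between DKO and *E2a-/-* lines. At an unadjusted p under 0.05, 14 of 120 passed, 5 higher and 9 lower in DKO, against 10.2% of all genes. The median log2 fold change of the 120 was -0.08, beside -0.02 over all genes.

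Of the genes for binding, uptake and activation of fatty acids, 11 of 23 were listed, with a median log2 fold change of 0.20. At an unadjusted p under 0.05, *Fabp5* was higher and *Acsbg1*, an acyl-CoA synthetase gene, lower in DKO (0.123 ± 0.138 CPM, SD, n = 8, against 1.12 ± 1.48 CPM, SD, n = 7). No other FABP gene than *Fabp5* and *Fabp4* was listed. Of the genes of synthesis, elongation and desaturation, 23 of 29 were listed, and the median was -0.13. A negative fold change was found for 17 of the 23, beside 6735 of all 12545 genes. *Elovl6* had the lowest p, followed by *Acss2*, which makes acetyl-CoA from acetate, with 21.0 ± 9.31 CPM across DKO lines (SD, n = 8) against 33.3 ± 16.8 CPM across *E2a-/-* lines (SD, n = 7) and an adjusted p of 0.502. Of the sterol genes, 21 of 23 were listed and 19 had a negative fold change, beside the same 6735 of 12545 genes. Their median was -0.20, but 0 had an unadjusted p under 0.05 in limma, and the signs were not tested as a set. *Mvd* and *Idi1*, enzymes of the mevalonate pathway, had the lowest p there, with log2 fold changes of -0.48 and -0.42.

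Of the SREBP, LXR and PPAR regulators, 14 of 18 were listed, with a median log2 fold change of -0.03. *Rxra*, the partner of LXR and PPAR receptors, had 44.6 ± 15.4 CPM across DKO lines (SD, n = 8) against 25.1 ± 26.8 CPM across *E2a-/-* lines (SD, n = 7), at a log2 fold change of 1.19 (adjusted p = 0.34), and *Srebf2*, the sterol regulator, had -0.25 and an adjusted p of 0.557. Of the thioesterases, 10 of 14 were listed, with a median of -0.18. At an unadjusted p under 0.05 in limma, 3 were lower in DKO, namely *Acot1*, *Acot2* (-0.78) and *Acot7* (-0.44), beside 732 of all 12545 genes. Reads may be split between *Acot1* and *Acot2*, so these 2 may not be separate observations. In DKO192.3 and DKO548, *Acot1* had 0 reads while *Acot2* had 62 and 61. Of the genes of fatty acid oxidation, 21 of 22 were listed, with a median of -0.02. *Cpt1a*, which admits fatty acids to mitochondria, had 103 ± 48.0 CPM across DKO lines (SD, n = 8) against 163.47 ± 51.2 CPM across *E2a-/-* lines (SD, n = 7), with an adjusted p of 0.407. Of the genes of glycerolipid storage, 20 of 30 were listed, with a median of 0.03, and 5 had an unadjusted p under 0.05 in limma, against 10.2% of all genes. *Agpat2* and *Gpat3*, acyltransferases of triglyceride synthesis, were the lowest in p, with log2 fold changes of -0.74 and -1.18 and adjusted p values of 0.232 and 0.241.

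**Figure D4:**
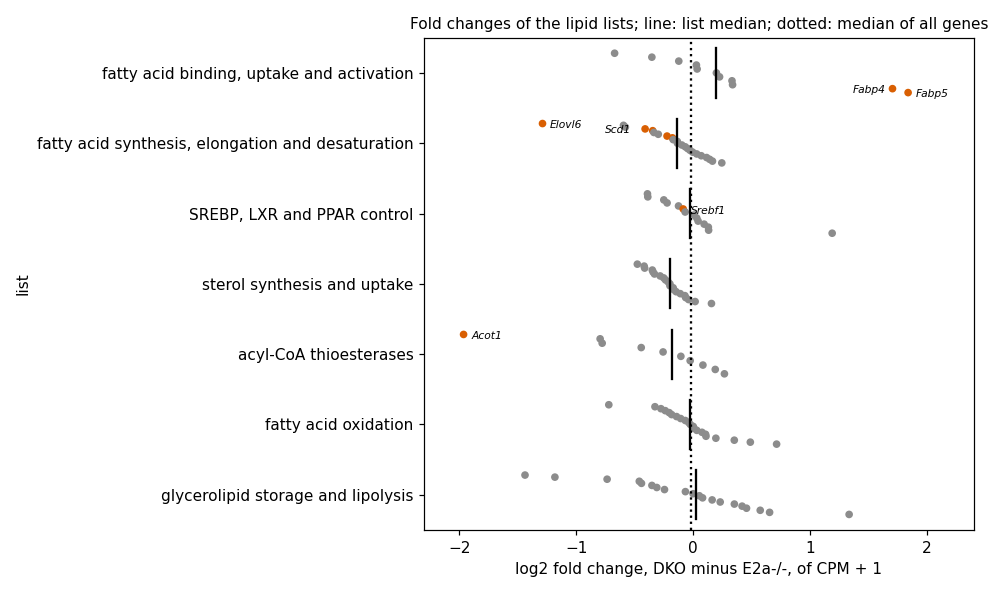
Each point is 1 listed gene, placed by its log2 fold change of CPM + 1 (DKO minus *E2a-/-*, x axis) in the row of its list (y axis), with members in orange, the list's median as a black line and the median of all genes (-0.02) as a dotted line. *Fabp5* (1.84) and *Fabp4* (1.71) stand at the right end and *Acot1* (-1.96) and *Elovl6* (-1.29) to the left of their lists, while list medians lie between -0.20 and 0.20.

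The lists did not go with *Fabp5* as a whole. In the fit on *Fabp5* with genotype, 0 of the list genes met an adjusted p of 0.01 (limma) and 9 had an unadjusted p under 0.05, against 10.3% of all genes. Over the list genes averaging at least 5 CPM, the median rho with *Fabp5* was -0.16 for synthesis, -0.13 for sterol genes and 0.28 for binding, uptake and activation, beside -0.01 over all genes. The median rho with *Fasn* was 0.40 for the synthesis list and 0.37 for the sterol list, beside 0.03 over all genes. These values share the same 15 lines and are given as a description.

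Single lines stood out across the lipid genes. SKO132 was the highest of the 15 lines for 5 of the 9 members (*Srebf1*, *Elovl6*, *Scd1*, *Scd2* and *Acot1*) and for 27 of the 120 list genes, or 22.5%, beside 15.7% of all genes. DKO548 was the highest for *Fasn* and *Acaca* and for 22 of the 120, or 18.3%, beside 6.19% of all genes, and DKO713 was the highest for *Fabp5* and *Fabp4*. Over the 44 listed synthesis and sterol genes, the highest line was DKO548 for 13, SKO95 for 13 and SKO132 for 9.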

How the data were processed

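Per the labels and the study's methods, the authors trimmed reads with Trimmomatic (version 0.33), aligned them with TopHat2 (version 2.1.0), counted them per gene with HTSeq (version 0.6.1) and scaled them with edgeR, and deposited CPM values for 12545 genes in 15 lines. The strand setting of the counting is not given in the sources used here. All values were whole multiples of 1 read (within 0.05 reads), so reads were recovered for the count tests; without molecular identifiers, single reads may stem from the same molecule. Gene coordinates are as the table lists them and differ from GRCm38, so promoters were matched by symbol. Symbols were found for 12172 genes in GENCODE vM21.

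The members and lists were chosen with earlier results of these data known. Values as log2(CPM + 1) were fitted with limma version 3.58.1 under R version 4.3.3, 2-sided, with Benjamini-Hochberg adjustment over all genes and a threshold of 0.01, and again with the level of *Fabp5* and genotype as terms; the study used edgeR, whose tests were run here as alternatives because the deposited unit is CPM. Exact permutation tests covered all splits of the lines into 8 and 7. Correlations used 100000 permutations, or all permutations within a group. Transcripts were aligned locally with Biopython (version 1.88). Named are the members, *Lef1*, the 2 genes with the lowest p per list (and any with an adjusted p under 0.01), and the 5 genes with the highest and lowest rho with *Fabp5*; others were named after their values were seen. A result that this rule would name is not reported here. Alternatives were a pseudocount of 0.1, a minimum mean of 1 CPM, median-of-ratios scaling, edgeR (version 4.0.16) quasi-likelihood and likelihood ratio tests, DESeq2 (version 1.42.0), each line left out, and SKO156.6 and SKO186.5 averaged. The fit on *Fasn*, the correlations among the other members and the sum of *Fabp5* and *Gm6166* were added after seeing the data. On simulated data with 200 of 12545 genes changed 4-fold between DKO and *E2a-/-* lines, limma recovered 80.5% with 1 false call. The quasi-likelihood test recovered 79% with 0, the likelihood ratio test 84.5% with 25 and DESeq2 88.5% with 21. With a simulated slope of 1 on *Fabp5* in 200 of 12544 genes, limma recovered 83% with 2 false calls. The changed genes were drawn from those averaging at least 5 CPM, and noise was independent between genes and lines. These rates therefore need not hold for the real lines or for low genes such as *Acot1*. The lines are treated as replicates; where nothing says that they came from separate mice, p-values measure only the spread between these lines.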

Additional observations from a re-analysis of the deposited data

Results flagged for a closer look

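In 14 of 64 groups of lines, formed by 32 named genes in 2 genotypes, the most extreme line was separated from the rest by a gap that is large for the range of its group. The rate set for this rule was about 1 in 20 groups, or 3.2 here. Gaps were measured on CPM rather than on log2 values, where high lines stand out less, and the genes are not independent. The 14 flagged groups are therefore no measure of an excess over chance. SKO132 was set apart as the highest *E2a-/-* line in 6 of them: *Srebf1* with 443 CPM (next 252), *Scd1* with 968 CPM (next 228), *Scd2* with 5370 CPM (next 2944), *Acot1* with 22.3 CPM (next 6.68), *Acot2* with 14.8 CPM (next 8.97) and *Rxra* with 82.7 CPM (next 34.0). This line also had the low *Lef1* of 59.0 CPM, and whether the 2 are linked was not tested. DKO548 was the highest DKO line for *Scd2* with 3728 CPM (next 2318) and *Acss2* with 42.6 CPM (next 22.6). DKO241 was the highest DKO line for *Srebf1* with 366 CPM (next 244) and the lowest for *Ist1* with 70.9 CPM (next 83.9). DKO79.9, the line with the fewest reads, was the highest DKO line for *Agpat2* with 15.7 CPM (next 9.49) and *Fgd3* with 16.3 CPM (next 8.70). *Gli1* reached 167 CPM in DKO713 (next 81.8), and ENSMUSG00000090430 reached 60.8 CPM in DKO170.2 (next 44.5).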

How the results depend on the processing

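The log2 fold change of *Fabp5* was 1.61 to 2.13 under all 23 alternatives run, and its adjusted p was 0.00888 to 0.328; it passed 0.01 in the likelihood ratio test (1.67). Genes called between DKO and *E2a-/-* lines numbered 6 in limma, 1 in the quasi-likelihood test, 155 in the likelihood ratio test, 177 in DESeq2, and 3 to 17 with 1 line left out (17 without SKO132, 10 without DKO79.9, 3 without DKO170.2, DKO713, SKO137.1 or SKO156.6). Genes that varied with *Fabp5* numbered 1, but 4 without the genotype term, 0 with SKO156.6 and SKO186.5 averaged (955 at an unadjusted p under 0.05 in limma) and 0 to 1 with 1 line left out, while the r of *Fabp5* with *Gm6166* stayed between 0.94 and 0.97 with 1 line left out. The r of *Fabp5* with *Fabp4* was 0.75 to 0.85 throughout. With 1 line left out, fold changes near 0 turned for *Scd1* (-0.78 to 0.34, 0.01 without SKO132) and *Srebf1* (-0.22 to 0.069). The r of *Fabp5* turned for *Acot1* (0.13 centred; with 1 line left out it was -0.59 to -0.40 and passed a permutation p of 0.05 only without SKO163.5, p = 0.0259), for *Fasn* (0.16 centred, and -0.34 to 0.19 with 1 line left out), for *Acaca* (-0.43 to 0.015, without DKO170.2) and for *Scd1* (-0.25 to 0.35, without DKO713); none of the r that turned had a permutation p under 0.05. The cause was not tested. Over all results and alternatives, 354 values kept their direction and side of the threshold (or, for counts of genes, stayed near the main count), 23 counts moved, 11 values turned and 4 newly passed a threshold. No paired analysis was possible because the 2 groups share no line number. The adjusted p of *Acot1* was 0.00115 to 0.17 over its alternatives. Values of *Acot1* and *Fabp4* near 0 rest on few reads.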
